A study of Rattus norvegicus with 12 samples.

Results

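Cultured cerebellar granule neurons of the rat that had received the compound GW5074 were compared between 3 h and 6 h. The comparison uses 6 of the study's 12 arrays, 3 at each time, taken by the time and treatment in the sample titles, and every non-control probe set. The other 6 arrays are low-potassium cultures at the same times, and their values are set beside the GW5074 change where a result turns on them. The labels give no dose, strain or age. They leave unsaid if potassium was lowered in the GW5074 cultures as well, and if the letters A, B and C stand for separate cultures. The p-values therefore measure the spread between these samples, which may be technical. No group is labelled as untreated or kept in raised potassium, so the change within the GW5074 cultures is a change over time and not by itself an effect of GW5074. The low-potassium cultures cover the same hours, and the test of the difference from them is given last. The submitters' sample numbers are all lower at 6 h than at 3 h, so any handling in that order cannot be told apart from time either. The title of 6 h A carries another suffix than the rest (e3_le1), with no meaning given in the sources used here.

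Granule neurons are the small glutamatergic neurons of the cerebellar cortex. In culture they are usually kept alive by raised potassium, which depolarises them and lets calcium in, and lowering potassium is a standard way to start their death. GW5074 is a small-molecule kinase inhibitor. Genes that follow calcium entry, stress kinases, FOXO and ATF4 are the usual readouts in these cells, and they order the account below after the neuronal genes themselves.

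The deposited value is an intensity, the brightness of a probe set on a linear scale, which the authors set to the same trimmed mean on each array. Intensities are given in the order A, B and C. A log2 change is the 6 h mean minus the 3 h mean after quantile normalisation between arrays, on the scale log2(intensity + 16), with the standard error (SE) of the limma fit over all 12 arrays. The added 16 understates the change of dim genes. A gene is represented by its brightest probe set and is said to have risen or fallen where the Benjamini-Hochberg adjusted p over all 18625 probe sets kept was under 0.05. Quantile normalisation gives all arrays 1 distribution, so a very bright gene can drop in intensity with a log2 change near 0.

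From 3 h to 6 h with GW5074, 4664 of 18625 probe sets (25.0%) passed the test, of which 2441 rose and 2223 fell. Counted by gene, 2823 of 10261 (27.5%) passed: 1378 rose (13.4%) and 1445 fell (14.1%). The median change of all genes was -0.017, and the median size of a called change was 0.73. The rise or fall exceeded 2-fold in 647 called genes and 4-fold in 41, of which 15 rose and 26 fell. All 6 h arrays lay on the same side of all 3 h arrays in 4454 genes (43.4%), among them 2759 of the called genes. Counts of called members are read against these shares: in 9 of the 35 gene lists described below no more than 27.5% of the members tested passed. These were the pro-apoptotic (26.7%), anti-apoptotic (18.2%), MAP kinase feedback (20.0%), NRF2 (23.1%), cell cycle (20.0%), axon guidance (26.7%), proteasome (24.0%), ribosomal protein (17.6%) and oxidative phosphorylation (14.8%) lists. Such shares depend on the normalisation. On the deposited values without it, 12 of 17 ribosomal protein, 9 of 25 proteasome and 8 of 27 oxidative phosphorylation genes fell. With arrays scaled to their medians instead, 10, 6 and 6 fell.

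The arrays of a time did not lie equally far from the other time. Each array was placed on a line from the 3 h mean (0) to the 6 h mean (1) over the called genes. The array itself was left out of these means. On this line 6 h A and 6 h C stood at 1.16 and 1.2 and 6 h B at 0.61. The 3 h arrays stood between -0.050 and 0.15. In 1992 of the 2823 called genes 6 h B was the 6 h array nearest to the 3 h mean, against 284 for 6 h A and 549 for 6 h C. Without 6 h B the test called 5362 probe sets, and without 6 h A it called 2463. Leaving out 3 h A, 3 h B, 3 h C or 6 h C gave 3057, 2685, 4204 and 2943. In what follows, a result without an array is that of the same test with the array left out, and deposited or median scaling stands in for the quantile normalisation. The signal ratio between the 3-prime and 5-prime ends of actin, a sign of RNA quality, differed between the times by 0.055 (log2, exact permutation p = 0.9, where 0.1 is the smallest p that 3 against 3 arrays allow), and that of GAPDH by -0.0034 (exact permutation p = 0.9). The spiked-in poly-A controls averaged 6.39 on 3 h A, 7.67 and 7.64 on 3 h B and 3 h C, and between 6.46 and 6.48 at 6 h (log2 intensity), so 3 h A stood with the 6 h arrays (difference -0.77, exact permutation p = 0.4). The part of this in the results was not tested.

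**Figure D1:**
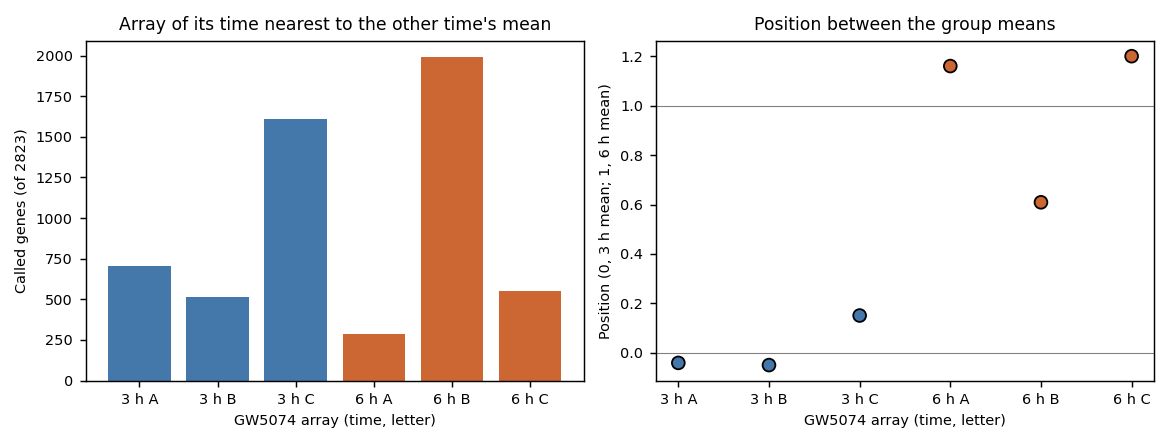
The 6 GW5074 arrays (x axis). The left bars count, out of 2823 called genes, those in which the array was the one of its time nearest to the other time's mean. The right points give its position over the called genes between the 3 h mean (0) and the 6 h mean (1), with the array itself left out of the means. Of the 6 h arrays, B is nearest to 3 h in 1992 genes and stands at 0.61.

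Markers of the labelled cell type were present. All 12 granule neuron markers measured passed the filter, and their summed intensity was 5917 to 7241 at 3 h and 11480 to 14310 at 6 h. The 6 general neuron markers summed to 8194 to 9741 and 9974 to 12630. Markers of other cells were present too. Astrocyte markers rose in sum from 2225 to 2640 at 3 h to 4038 to 4620 at 6 h, a range that does not overlap, with Slc1a2 below the filter. Of the 8 tested 2 rose: Gfap, the astrocyte filament protein, had intensities of 357, 362 and 545 at 3 h and 2002, 941 and 2032 at 6 h (log2 change 1.92, SE 0.43, adjusted p = 0.00648), and Aldoc had 341, 432 and 596 at 3 h and 1267, 795 and 1202 at 6 h (log2 change 1.24, SE 0.35, adjusted p = 0.0189). Gfap and Aldoc were lowest on 6 h B among the 6 h arrays. The other astrocyte markers did not pass and ranged from -0.50 (Slc1a3) to 0.53 (Aqp4). Astrocyte marker genes gave 1 rise without 3 h A, 3 h B or 6 h A. Aldoc lost its call without 3 h A, 3 h B, 6 h A or 6 h C (adjusted p 0.0601 to 0.083). Aqp4 passed without 6 h C (adjusted p = 0.0474), and Slc1a3 passed without 6 h B (adjusted p = 0.0248).

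Oligodendrocyte lineage markers summed to 2677 to 3401 at 3 h and 1891 to 2788 at 6 h, with Olig2 and Cspg4 below the filter. Cnp, a myelin enzyme, was the member that fell (log2 change -0.61, SE 0.15, adjusted p = 0.00906); Mbp (-0.43, adjusted p = 0.078), Olig1 (0.41, adjusted p = 0.31) and Pdgfra (-0.12, adjusted p = 0.674) did not pass. Microglial markers summed to 443 to 876 and 435 to 612, with Aif1, Itgam, Ptprc and Cx3cr1 below the filter, and none of the 6 tested passed; C1qa, C1qc, Cd68 and Csf1r had log2 changes of -0.28, -0.53, -0.34 and 0.31. Endothelial and fibroblast markers summed to 127 to 183 and 139 to 299 with Pecam1, Vwf, Kdr, Dcn and Lum below the filter, and Col1a1, Col1a2 and Col3a1 did not pass (0.32, 0.34 and 0.55). Among Purkinje and GABAergic markers, 1 of 6 fell, the calcium buffer Pvalb, with intensities of 431, 405 and 375 at 3 h and 139.6, 167 and 104 at 6 h (log2 change -1.52, SE 0.18, adjusted p = 0.000187); Gad1, Pcp2 and Slc32a1 had 0.11, -0.29 and 0.72 and did not pass, and the 2 Gad1 probe sets had opposite signs. In a bulk sample, fewer cells of a type and less RNA per cell cannot be told apart. The part of other cell types in the changes below was not tested. Oligodendrocyte lineage genes gave 2 falls without 6 h B or under the deposited scaling. Mbp passed without 6 h B or under the deposited scaling (adjusted p 0.00791 to 0.0361), and Slc32a1 passed without 6 h B (adjusted p = 0.0194).

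Genes of the granule neuron rose together. Of 28 tested members of the granule neuron list, 22 rose (78.6%, against 13.4% of all genes) and none fell. The median change of the list was 0.80 against -0.017 for all genes. All 12 granule markers rose, but they are members of this list and are counted among the 22. Gabra6, the GABA-A receptor subunit that defines mature granule neurons, had intensities of 178, 255 and 369 at 3 h and 1252, 777 and 1378 at 6 h (log2 change 2.05, SE 0.32, adjusted p = 0.000831). The 3 arrays at 6 h were all above those at 3 h, with 6 h B the lowest of them, and both Gabra6 probe sets passed. Cbln1, the secreted synapse organiser of parallel fibres, rose from 1019, 974 and 1169 at 3 h to 3308, 2455 and 3467 at 6 h (log2 change 1.62, SE 0.16, adjusted p = 7.69e-05). For Rbfox3, which encodes the neuronal nuclear antigen NeuN, the values were 215, 211 and 229.8 at 3 h and 821, 619 and 807 at 6 h (log2 change 1.67, SE 0.13, adjusted p = 2.71e-05). Neurod1, a transcription factor of granule neuron differentiation, had 1407, 1371 and 1733 at 3 h and 3064, 2911 and 3340 at 6 h (log2 change 1.19, SE 0.14, adjusted p = 0.000185). In none of these 4 genes did the arrays of the times overlap.

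Fat2, a large cadherin of granule cell axons, rose 4.28-fold, from 252 ± 109 to 1099 ± 287 (mean ± SD of the intensities, n = 3 per time). The metabotropic glutamate receptor Grm4 had 139, 108 and 206 at 3 h and 487, 425 and 379.9 at 6 h (log2 change 1.4, SE 0.21, adjusted p = 0.000678), and the transcription factor Barhl1 112, 109.7 and 62.8 at 3 h and 286, 229.9 and 261 at 6 h (log2 change 1.28, SE 0.20, adjusted p = 0.000727). Further transcription factors of the lineage rose by less: Zic1 by 0.72, Zic2 by 0.87, Etv1 by 0.83, En2 by 0.68, Nfia by 0.90, Nfix by 0.75 and Pax6 by 0.40. Slc17a7, the vesicular glutamate transporter, rose by 0.60 (adjusted p = 0.0246), and Grin2c, the NMDA receptor subunit of mature granule cells, by 1.03 with 3 h C above 6 h B. The 6 members that did not pass were Kcnd2, Grin2a, Neurod2, Gabrd, Grin1 and Kcnk9, between -0.44 and 0.43. The astrocyte gene Gfap moved the same way, as given above. Granule marker genes gave 7 rises without 3 h B or 6 h C. Grin2c lost its call without 3 h A, 3 h B, 6 h A or 6 h C (adjusted p 0.064 to 0.0785), and Slc17a7 lost its call without 3 h A, 3 h B, 6 h A or 6 h C or under the deposited scaling (adjusted p 0.0535 to 0.112).

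**Figure D2:**
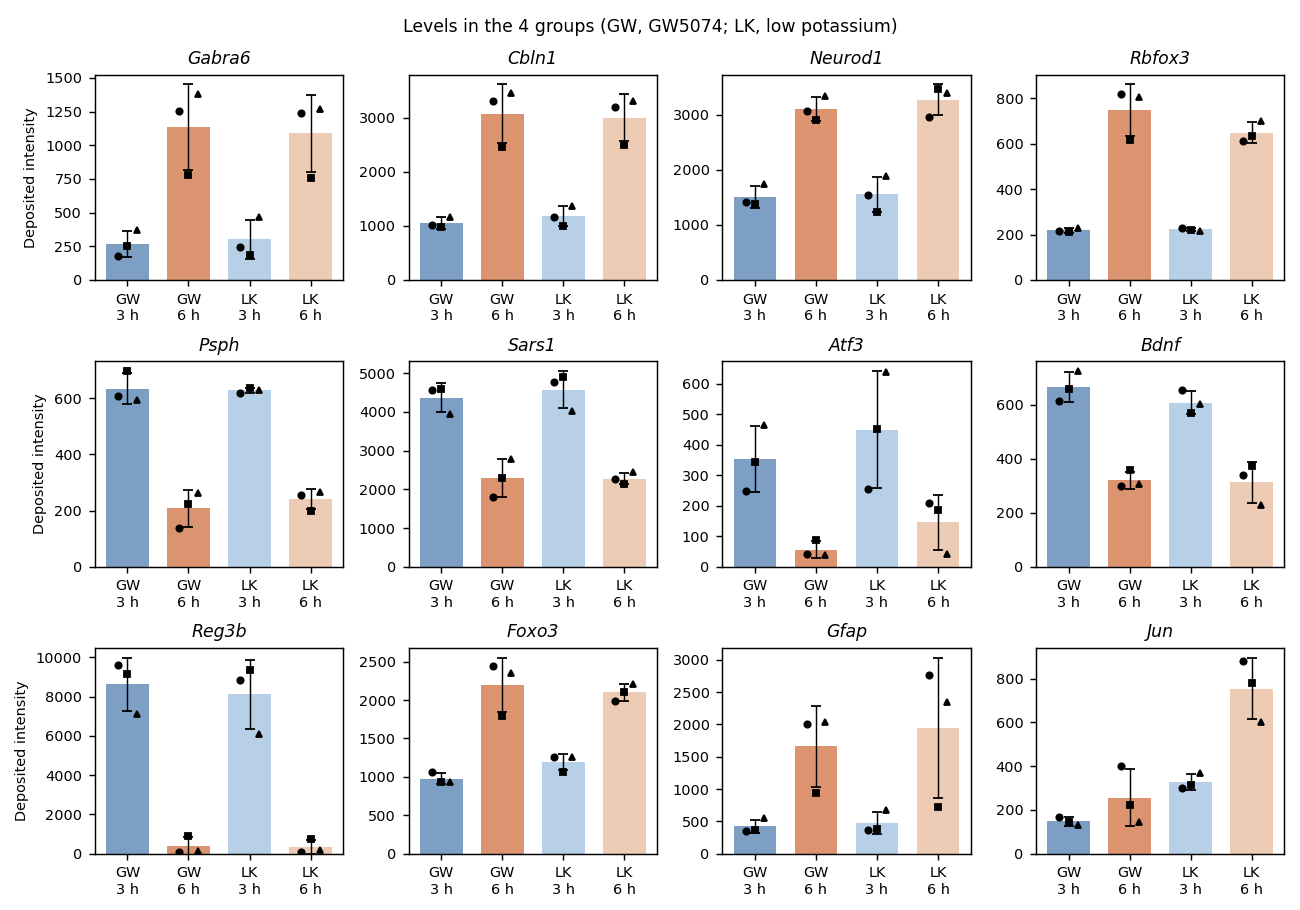
Deposited intensity (y axis, linear) of 12 genes in the 4 groups of 3 arrays: bars are means, error bars SDs and points the arrays (circle A, square B, triangle C). Gabra6, Cbln1, Neurod1, Rbfox3, Foxo3 and Gfap are higher at 6 h than at 3 h with GW5074, Psph, Sars1, Atf3, Bdnf and Reg3b are lower, and the arrays of Jun overlap between the times.

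The leading rises held other neuronal surface and signalling genes. The 15 largest rises ran from Map2k6 to Fxyd6, and in each of the 15 the lowest 6 h array was B. Map2k6, the kinase that activates p38, had intensities of 65.8, 39 and 29.4 at 3 h and 422, 210.3 and 560 at 6 h, a 6.48-fold rise (log2 change 2.7, SE 0.33, adjusted p = 0.000219). Vsnl1, a neuronal calcium sensor, had 319, 322 and 520.2 at 3 h and 2002, 1297 and 2225 at 6 h (log2 change 2.24, SE 0.34, adjusted p = 0.000735), on both of its probe sets. Ppp1r1b, the phosphatase inhibitor DARPP-32, had 35.2, 43.5 and 47.4 at 3 h and 331, 189.6 and 297 at 6 h (log2 change 2.26, SE 0.19, adjusted p = 3.97e-05). By the rule that chose them, no 6 h array of these genes was as low as any at 3 h.

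Tcerg1l had 263, 224 and 257 at 3 h and 1450, 908 and 1542 at 6 h (log2 change 2.32, SE 0.20, adjusted p = 3.97e-05). Adhesion and guidance genes in the group were Sema3g, a secreted semaphorin (1.74, 12 and 26.2 at 3 h and 158, 62.5 and 234 at 6 h; fold 5.49), Cdh7, a cadherin (4.3-fold), Cadm1, a synaptic adhesion molecule (4.23-fold), Igsf21 (4.38-fold) and Lrrn3 (4.2-fold). Sema3g was under the filter's intensity of about 28 on every 3 h array. Zfp521, a zinc-finger transcription factor, rose from 417 ± 68.8 to 1751 ± 493 (mean ± SD, n = 3). Ttyh2, a tweety-family membrane protein, rose 4.71-fold, Castor2, related to the arginine sensor of mTORC1, 4.37-fold, and Fxyd6, a modulator of the sodium pump, 4.01-fold (adjusted p = 0.00678).

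**Figure D3:**
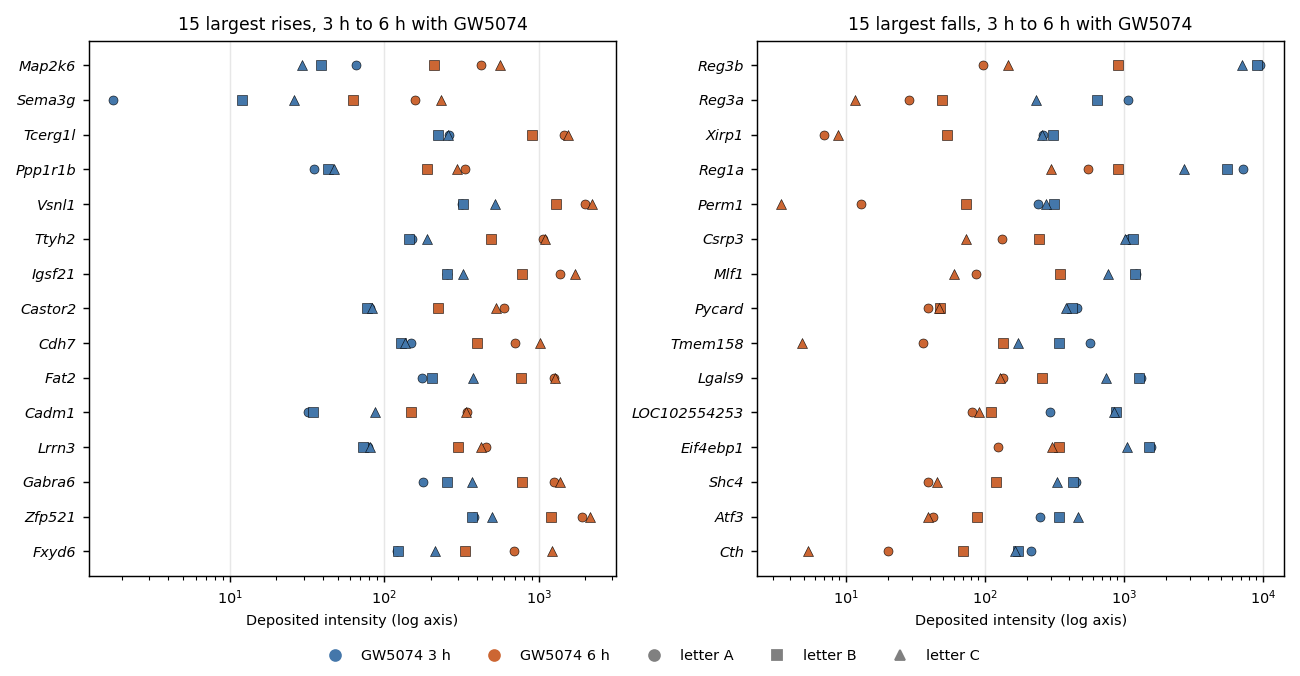
Deposited intensity (log axis) of the 15 largest rises and the 15 largest falls, 1 row per gene, at 3 h (blue) and 6 h (orange), with a symbol per letter. The genes were chosen among those whose 6 h arrays all lie on one side of the 3 h arrays, so every row does so by the rule. Among the 6 h arrays B (square) is the lowest in the 15 rises and the highest in all 15 falls.

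Of 26 voltage-gated and calcium handling genes 9 rose (34.6%, against 13.4% of all genes) and 1 fell (median 0.32). Scn2b, a sodium channel beta subunit, had 44.9, 56.5 and 82.5 at 3 h and 312, 148 and 240.3 at 6 h (log2 change 1.61, SE 0.30, adjusted p = 0.00227). The calcium pumps Atp2b2 and Atp2a2 rose (1.02, adjusted p = 0.000393, and 0.77, adjusted p = 0.000266; 3 of the 4 Atp2a2 probe sets had this direction), as did the potassium channel Kcnc1 (1.2), the sodium channel Scn2a (0.85) and Itpr1 (0.56). The calcium channel subunit Cacnb4 was the member that fell (136, 147 and 148 at 3 h and 41.9, 80.1 and 42.5 at 6 h; log2 change -1.22, SE 0.20, adjusted p = 0.0011). Channel and calcium genes gave 4 rises without 3 h A, 5 rises without 3 h B, 6 h A or 6 h C and 2 falls without 6 h B.

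Among 23 genes of the synaptic vesicle and its release, 9 rose (39.1%, against 13.4% of all genes) and 2 fell (median 0.36). Syn2, a vesicle phosphoprotein, had 152, 142 and 176 at 3 h and 469, 338 and 477 at 6 h (log2 change 1.28, SE 0.18, adjusted p = 0.000464), and Sv2b, a vesicle glycoprotein, 2005, 1762 and 2971 at 3 h and 3978, 4214 and 4064 at 6 h (log2 change 1.08, SE 0.17, adjusted p = 0.000875). Nrxn2 rose (0.96, adjusted p = 0.00271), and Stx1a (-0.94) and Syt4 fell; Syt4 had 2993, 2702 and 2043 at 3 h and 1348, 1508 and 1500 at 6 h (log2 change -0.67, SE 0.14, adjusted p = 0.00393). Snap25, a fusion protein, rose by 0.44. Of 16 glutamate receptor genes 4 rose (25.0%, against 13.4% of all genes) and 1 fell. The share that passed was 31.2%, near the 27.5% of all genes. Grm4, Grin2c, Gria4 and Grm2 rose. The kainate receptor Grik1 fell, with 360.5, 379.5 and 430.4 at 3 h and 194, 293 and 137 at 6 h (log2 change -0.97, SE 0.23, adjusted p = 0.0084). Gria4 had 150, 127 and 111 at 3 h and 279, 250.5 and 347 at 6 h (log2 change 1.01, SE 0.21, adjusted p = 0.00365). Vesicle genes gave 4 rises without 6 h A. Glutamate receptor genes gave 2 rises without 3 h A, 3 h B, 6 h A or 6 h C. Grin2c lost its call without 3 h A, 3 h B, 6 h A or 6 h C (adjusted p 0.064 to 0.0785), and Snap25 lost its call without 3 h A, 3 h B, 6 h A or 6 h C, under the deposited scaling or under median scaling (adjusted p 0.0686 to 0.257).

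In the cytoskeleton list 9 of 26 genes rose (34.6%, against 13.4% of all genes) and 1 fell (median 0.32). Tuba4a (0.74, adjusted p = 0.000994), Map1b (0.55, adjusted p = 0.00222), Nefl (0.57, adjusted p = 0.00268) and Map2 (0.86, adjusted p = 0.0128) rose, which encode an alpha-tubulin, microtubule-associated proteins and the light neurofilament. Tubb6, a beta-tubulin of many non-neuronal cells, was the gene that fell, with 372, 350 and 303 at 3 h and 51.8, 136 and 46.5 at 6 h (log2 change -2.05, SE 0.34, adjusted p = 0.00108). Of 30 axon guidance and adhesion genes 8 rose (26.7%, against 13.4% of all genes) and none fell (median 0.28). The share that passed was the same 26.7%, about the 27.5% of all genes. L1cam, an axonal adhesion molecule, had 337, 328 and 381 at 3 h and 678, 662 and 739 at 6 h (log2 change 0.93, SE 0.16, adjusted p = 0.00161), Ntn1, the guidance cue netrin-1, 30.7, 34.6 and 51.5 at 3 h and 79.8, 98.4 and 93.3 at 6 h (log2 change 0.98, SE 0.22, adjusted p = 0.00631), and Unc5c, a netrin receptor, rose by 1.25. Efna5 and Plxnd1 rose as well (0.88 and 0.84). General neuronal markers gave 4 rises of 6, with Tubb3 at -0.58 not passing. Cytoskeleton genes gave 4 rises without 3 h A, 3 h B or 6 h A and 5 rises without 6 h C. Axon guidance and adhesion genes gave 4 rises without 6 h A. Neuron marker genes gave 2 rises without 3 h A, 6 h A or 6 h C. Map2 lost its call without 3 h A, 6 h A or 6 h C (adjusted p 0.051 to 0.0642).

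**Figure D4:**
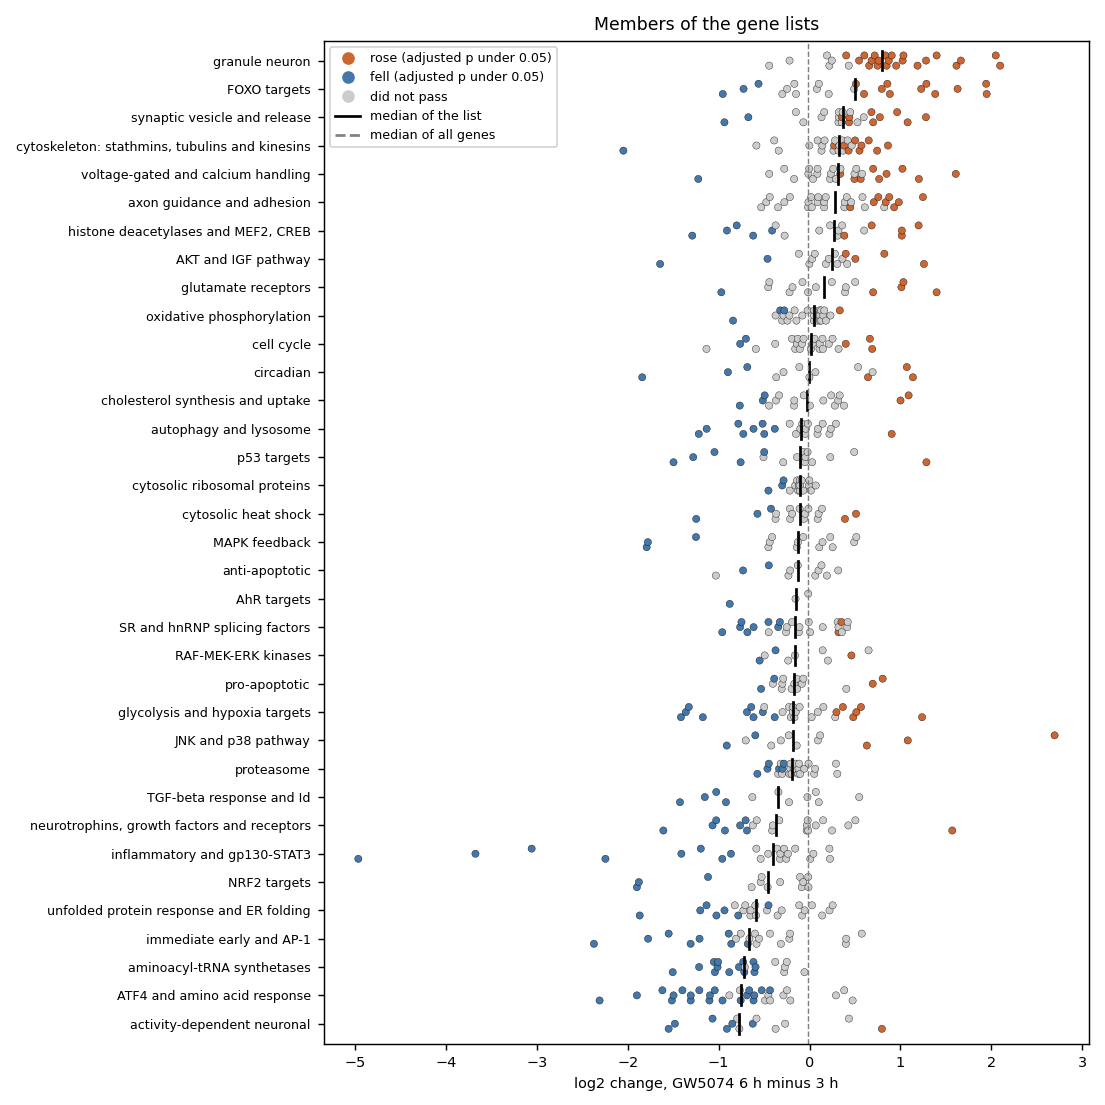
Log2 change from 3 h to 6 h with GW5074 (x axis) of each member of the 35 lists, 1 row per list in order of the median (black bar), with the median of all genes dashed; orange members rose, blue fell and grey did not pass. The granule neuron row lies highest, with 22 of 28 members orange, and the rows of activity-dependent, ATF4 and tRNA synthetase genes lie lowest.

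Amino acid synthesis genes under the transcription factor ATF4 fell together, and its amino acid transport genes fell in part. ATF4 is made when amino acids run short or the endoplasmic reticulum is stressed, and it switches on genes that make, import and charge amino acids. Of 31 tested members of its list 20 fell (64.5%, against 14.1% of all genes) and none rose, with a median of -0.76. Psph, the last enzyme of serine synthesis, had 609, 696 and 593 at 3 h and 136, 224 and 264 at 6 h (log2 change -1.62, SE 0.19, adjusted p = 0.000187). Phgdh, the first enzyme of that pathway, had 2080, 2052 and 1485 at 3 h and 418, 813 and 680.2 at 6 h (log2 change -1.51, SE 0.24, adjusted p = 0.000976), and Shmt2, which uses serine in mitochondria, 2219, 2405 and 1729 at 3 h and 521, 889 and 758 at 6 h (log2 change -1.5, SE 0.21, adjusted p = 0.000405). The 3 h and 6 h arrays of these 3 genes did not overlap. Cth, which makes cysteine, was among the 15 largest falls, with 215, 174 and 164 at 3 h and 20.0, 69.7 and 5.38 at 6 h (log2 change -2.31, SE 0.42, adjusted p = 0.00181). Slc7a11, the cystine importer, had 383, 291 and 279 at 3 h and 52, 77.4 and 96.7 at 6 h (log2 change -1.9, SE 0.24, adjusted p = 0.000269). Of the other transport genes Slc7a1 (-0.66), Slc7a3 (-0.61) and Slc3a2 (-0.53) fell. Slc7a5 (-0.77, adjusted p = 0.0807), Slc1a5 (-0.43), Slc1a4 (-0.45) and Slc38a2 (0.47) did not pass. Asns, which makes asparagine, fell by 1.4 on the log2 scale, Mthfd2 by 1.31, Psat1 by 1.1, Atf5 by 0.96 and Atf4 itself by 0.43. Of 11 members that did not pass, Ddit3, which encodes CHOP, had 966, 928 and 958 at 3 h and 740.1, 397 and 456 at 6 h (-0.88, adjusted p = 0.0595), Trib3 had -0.49 and Chac1 0.38. With 1 array left out, 16 to 20 of the list fell. Eif4ebp1, which encodes a translation repressor and is another known target of ATF4, fell from 1387 ± 291 to 256 ± 116 (mean ± SD, n = 3; log2 change -2.45, SE 0.33, adjusted p = 0.000361). Ddit3 passed without 6 h A or under the deposited scaling (adjusted p 0.0431 to 0.0485).

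The enzymes that load amino acids onto transfer RNA fell as well. Of 19 tested, 13 fell (68.4%, against 14.1% of all genes) and none rose, with a median of -0.72. Tars1, for threonine, had 978, 881 and 882 at 3 h and 348, 468 and 531 at 6 h (log2 change -1.04, SE 0.16, adjusted p = 0.000715). Sars1, for serine, had 4577, 4586 and 3939 at 3 h and 1807, 2294 and 2788 at 6 h (log2 change -0.78, SE 0.13, adjusted p = 0.000986). Eprs1 and Wars1 had 4507, 3982 and 3267 at 3 h and 1364, 2025 and 1866 at 6 h, and 1777, 1469 and 1039 at 3 h and 524, 666 and 546 at 6 h (log2 changes -1.01 and -1.21, adjusted p = 0.00161 and 0.00212). Lars1 fell most, by 1.5, and Mars1 and Nars1 fell by 1.05 and 0.73. The 6 that did not pass were Hars1 (-0.71), Iars1 (-0.38), Aars1 (-0.28), Rars1 (-0.27), Kars1 (-0.25) and Qars1 (-0.055). With 1 array left out, 10 to 14 fell.

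ATF4 binds, with C/EBP partners, a composite element whose core is TGATGCAA or, more loosely, TGATGNAA. Because the synthetases fell together, RefSeq promoters (build GRCr8, searched over the 250 bases before each start site, on both strands) were examined for it, after the changes had been seen. TGATGCAA was found in 0.693% of all 33469 promoters, in 5 of the 17 tested synthetases with a promoter entry and in 4 of 28 members of the ATF4 list (Chac1, Herpud1, Nupr1 and Slc1a4). TGATGNAA, which includes it, was found in 3.4% of all promoters, in the same 5 synthetases and in 6 of 28 members of the ATF4 list, adding Trib3 and Slc7a1, of which Slc7a1 fell (-0.66, adjusted p = 0.00905) and Trib3 did not pass. Of the 5, Tars1, Mars1 and Nars1 fell and Aars1 and Iars1 did not pass, and none of the 4 members of the ATF4 list with TGATGCAA passed. TGATGCAA was thus in 3 of 12 fallen synthetases with an entry and in 2 of 5 others tested. For the ATF4 list it was in 0 of 18 fallen genes and in 4 of 10 others tested. The 5 synthetase windows are shown because they hold the element, with the match in capitals and up to 30 bases on each side, 5′ to 3′ on the gene's strand; TTGCATCA is the same element on the other strand.
Tars1: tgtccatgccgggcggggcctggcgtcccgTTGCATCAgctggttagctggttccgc
Mars1: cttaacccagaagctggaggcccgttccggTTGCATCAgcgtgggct
Nars1: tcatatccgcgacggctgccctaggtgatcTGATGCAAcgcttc
Aars1: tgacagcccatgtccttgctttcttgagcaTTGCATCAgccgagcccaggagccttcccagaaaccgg
Iars1: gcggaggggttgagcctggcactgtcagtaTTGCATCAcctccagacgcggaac
The Tars1 window is chr2:62114803-62114859, minus strand, and the match starts 27 bases before the start site. The Mars1 window is chr7:65023754-65023800, minus strand, and the match starts 17 bases before the start site. The Nars1 window is chr18:60275783-60275826, minus strand, and the match starts 14 bases before the start site. The Aars1 window is chr19:55908340-55908407, plus strand, and the match starts 112 bases before the start site. The Iars1 window is chr17:15193653-15193706, minus strand, and the match starts 24 bases before the start site. A match is a description of the letters, and binding was not measured.

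Of 24 genes of the unfolded protein response 7 fell and none rose (median -0.59). The share that fell was 29.2%, against 14.1% of all genes. The share that passed was the same 29.2%, near the 27.5% of all genes. Sdf2l1, a chaperone cofactor of the endoplasmic reticulum, had 868, 796 and 765 at 3 h and 404, 220.2 and 108 at 6 h (log2 change -1.87, SE 0.43, adjusted p = 0.00735). The stress sensor Atf6 (log2 change -0.78, SE 0.15, adjusted p = 0.00236) and the degradation factors Sel1l (-1.02, adjusted p = 0.0031) and Edem1 (-0.94, adjusted p = 0.00446) fell. The main chaperone Hspa5 (-0.59, adjusted p = 0.171) and Xbp1 (0.027) did not pass. Cytosolic heat shock genes gave 2 rises and 3 falls of 17 (median -0.11), so that 29.4% passed, near the 27.5% of all genes. Dnajb2 fell (-0.57, adjusted p = 0.00749) and Hspb8 fell (-1.25, adjusted p = 0.0402), while Hspe1 (-0.42), Dnajb6 (0.51) and Dnajb4 (0.39) passed. Heat shock genes gave 0 rises without 3 h B or 6 h C, 1 rise without 3 h A, 3 h C, 6 h A or 6 h B, under the deposited scaling or under median scaling and 1 fall without 3 h A, 3 h B, 3 h C, 6 h A or 6 h C. Hspe1 lost its call without 3 h A, 3 h B, 3 h C, 6 h A or 6 h C (adjusted p 0.0607 to 0.12), and Dnajb6 lost its call without 3 h B, 3 h C, 6 h A or 6 h C, under the deposited scaling or under median scaling (adjusted p 0.0724 to 0.164). Dnajb4 lost its call without 3 h A, 3 h B, 6 h B or 6 h C (adjusted p 0.0919 to 0.13).

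Of 21 immediate early genes tested, which are switched on by calcium and stress and shut off again, 8 fell (38.1%, against 14.1% of all genes) and none rose, with a median of -0.66. Atf3, a stress-induced transcription factor, had 249.5, 344 and 465 at 3 h and 42.6, 87.7 and 39.2 at 6 h (log2 change -2.37, SE 0.43, adjusted p = 0.00182). Fos had 496, 643 and 511 at 3 h and 94.1, 418 and 78.7 at 6 h (log2 change -1.78, SE 0.42, adjusted p = 0.00864), with 6 h B the highest of the 6 h arrays. The nuclear receptor Nr4a1 had 135, 124 and 133 at 3 h and 27.4, 49.2 and 27.6 at 6 h (log2 change -1.55, SE 0.21, adjusted p = 0.000332). Junb (-0.86, adjusted p = 0.00673) and Klf6 (-1.21, adjusted p = 0.00382, on all 3 of its probe sets) fell. Jun, the partner of Fos and a target of the kinase JNK, had 167, 144 and 130 at 3 h and 400.3, 221 and 147 at 6 h and did not pass (0.57, adjusted p = 0.125); in low potassium its change was 1.13, and the difference did not pass either (paired adjusted p = 0.237). Egr1 (0.40) and Myc (0.40) did not pass either. Immediate early genes gave 4 falls without 6 h A and 5 falls without 6 h C. Fos lost its call without 6 h A (adjusted p = 0.0501). Jun passed without 6 h C (adjusted p = 0.0222).

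Activity-dependent neuronal genes had the lowest median of all lists, -0.77, with 6 of 13 falling (46.2%, against 14.1% of all genes) and 1 rising. Bdnf, the neurotrophin induced by calcium entry, had 614, 656 and 723 at 3 h and 297, 356 and 307 at 6 h (log2 change -1.07, SE 0.17, adjusted p = 0.000946); its other probe set did not pass and had the opposite sign. Nfil3, a transcription repressor, had 285, 362 and 309.9 at 3 h and 95, 102 and 127 at 6 h (log2 change -1.48, SE 0.18, adjusted p = 0.000189). Scg2 (-0.85), Gem (-0.91) and Rgs2 (-0.62) fell, and Arc (-0.58, adjusted p = 0.0607) and Vgf (-0.80, adjusted p = 0.103) did not pass. Nptx1, a secreted synaptic pentraxin, was the gene that rose (0.80, adjusted p = 0.0195), but its arrays overlapped. Activity-dependent neuronal genes gave 0 rises without 3 h A, 3 h B, 6 h A or 6 h B and 3 falls without 3 h A, 3 h B, 3 h C, 6 h A or 6 h C. Nptx1 lost its call without 3 h A, 3 h B, 6 h A or 6 h B (adjusted p 0.0543 to 0.0906).

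Among 15 MAP kinase feedback genes 3 fell (20.0%, against 14.1% of all genes) and none rose. The share that passed was the same 20.0%, below the 27.5% of all genes. Gadd45b, an activator of stress kinases, had 570.1, 669.8 and 639.9 at 3 h and 161, 319.5 and 98.9 at 6 h (log2 change -1.79, SE 0.33, adjusted p = 0.00187), its relative Gadd45g 1638, 1651 and 1429 at 3 h and 492, 616 and 267 at 6 h (log2 change -1.78, SE 0.29, adjusted p = 0.000976), and Dusp6, the phosphatase that turns off ERK, 556, 561 and 563 at 3 h and 194, 416 and 156 at 6 h (log2 change -1.25, SE 0.29, adjusted p = 0.00819, on all 3 probe sets). Gadd45a (0.49, adjusted p = 0.0717) and Dusp1 (-0.13, adjusted p = 0.706, its 2 probe sets of opposite sign) did not pass. In the JNK and p38 list 3 of 12 rose, Map2k6, Mapk12 (1.08, adjusted p = 0.013) and Map3k12 (0.63, adjusted p = 0.00362), and 2 fell, Map3k1 (-0.91) and Map2k3 (-0.60). In the JNK and p38 list 41.7% passed, against 27.5% of all genes. Map3k12, known as DLK, is the kinase upstream of JNK in axons. MAPK feedback genes gave 6 falls without 6 h B. JNK and p38 pathway genes gave 0 falls without 3 h B, 6 h A or 6 h C and 1 fall without 3 h A or under median scaling. Mapk12 lost its call without 3 h A or 6 h A (adjusted p 0.0578 to 0.0669), and Map2k3 lost its call without 3 h A, 3 h B, 6 h A or 6 h C or under median scaling (adjusted p 0.0526 to 0.101). Gadd45a passed under the deposited scaling or under median scaling (adjusted p 0.0271 to 0.0477).

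Of 9 kinases and adaptors of the RAF-MEK-ERK pathway, Grb2 rose (0.46, adjusted p = 0.0135) and Map2k2 (-0.55, adjusted p = 0.0141) and Araf (-0.37, adjusted p = 0.0441) fell, while Map2k1 did not pass (-0.49, adjusted p = 0.0526). Of this list 33.3% passed, against 27.5% of all genes. The other probe set of Araf had the opposite sign. RAF-MEK-ERK genes gave 0 rises without 3 h A or 6 h A, 2 rises without 6 h B, 0 falls without 3 h A or 6 h A or under median scaling and 1 fall without 3 h B or 6 h C or under the deposited scaling. Grb2 lost its call without 3 h A or 6 h A (adjusted p 0.0552 to 0.065), and Map2k2 lost its call without 3 h A or 6 h A or under median scaling (adjusted p 0.0505 to 0.0687). Araf lost its call without 3 h A, 3 h B, 6 h A or 6 h C, under the deposited scaling or under median scaling (adjusted p 0.0614 to 0.177). Map2k1 passed without 3 h C or 6 h B (adjusted p 0.0325 to 0.0436).

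The 11 tested genes of TGF-beta response and Id gave 4 falls (36.4%, against 14.1% of all genes) and no rise (median -0.34). The Id genes, repressors of neuronal basic helix-loop-helix factors, gave Id3 231, 194 and 168 at 3 h and 46, 94.2 and 57.5 at 6 h (log2 change -1.43, SE 0.24, adjusted p = 0.00115), Id1 402, 404 and 557 at 3 h and 192, 325 and 223 at 6 h (log2 change -0.92, SE 0.22, adjusted p = 0.00807) and Id4 -1.15 (adjusted p = 0.0111). Id2 did not pass (0.069). Tgfb2, a secreted ligand, had 386, 449 and 419.8 at 3 h and 208, 204 and 207 at 6 h (log2 change -1.03, SE 0.17, adjusted p = 0.0013). Id4 lost its call without 3 h B or 6 h C (adjusted p 0.052 to 0.0523).

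Secreted proteins of the Reg family headed the falls: of called genes whose arrays did not overlap, Reg3b and Reg3a had the 2 largest. Reg proteins are small secreted lectins induced in injured tissue through gp130 and STAT3. Reg3b had 9606, 9144 and 7096 at 3 h and 97.2, 903 and 148 at 6 h, a 31.2-fold fall (log2 change -4.96, SE 0.69, adjusted p = 0.000405). Reg3a had 1070, 645 and 235 at 3 h and 28.4, 48.8 and 11.6 at 6 h (log2 change -3.67, SE 0.53, adjusted p = 0.000498), and Reg1a 7158, 5540 and 2690 at 3 h and 549.8, 901 and 299 at 6 h (log2 change -3.06, SE 0.48, adjusted p = 0.00081). By the rule that chose the leading falls, each 6 h array of the 3 genes was below each at 3 h. At 6 h, 6 h B was the highest. Reg2 was not tested here. The list of inflammatory and gp130-STAT3 genes that holds them gave 8 falls of 22 (36.4%, against 14.1% of all genes) and no rise (median -0.41). The chemokine Cxcl1 had 373, 605 and 549.5 at 3 h and 65.2, 252 and 43.3 at 6 h (log2 change -2.24, SE 0.49, adjusted p = 0.00533), and Ccl7 (-1.41), Ccl2 (-1.2), Ccl20 (-0.96) and Timp1 (-0.86) fell. Socs3 (-0.54, adjusted p = 0.171) and Stat3 (-0.28) did not pass. Inflammatory genes gave 5 falls without 3 h A, 3 h B, 6 h A or 6 h C.

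The STAT motif TTCNNNGAA was found in 7.67% of all promoters and in those of Reg3b and Reg1a, not in that of Reg3a, in the same 250 bases and also after the changes had been seen. Both matches are shown, with the match in capitals.
Reg3b: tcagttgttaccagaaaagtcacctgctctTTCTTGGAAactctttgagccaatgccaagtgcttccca
Reg1a: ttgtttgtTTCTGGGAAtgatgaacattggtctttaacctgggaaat
The Reg3b window is chr4:112419617-112419685, plus strand of GRCr8, with the match starting 129 bases before the start site. The Reg1a window is chr4:112450216-112450262, plus strand of GRCr8, with the match starting 242 bases before the start site. In all 10 motifs were searched. The others were the AP-1 site TGANTCA (6.34% of all promoters), the cyclic AMP element TGACGTCA (1.59%), the FOXO site TGTTTAC (3.21%), the MEF2 box (3.41%), the E-box CANNTG (65.5%) and its forms CAGATG (14%) and CATATG (3.63%). Of the 8 fallen immediate early genes, 5 had a promoter entry and none held the AP-1 site, and of the 11 risen FOXO genes 10 had an entry and 2, Insr and Klf9, held the FOXO site, as did 2 (Bcl2l11 and Trim63) of the 9 other tested FOXO genes with an entry.

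The 15 largest falls also held genes best known from muscle and from innate immunity. Xirp1, an actin-binding protein of striated muscle, had 260, 309 and 256 at 3 h and 6.96, 53.4 and 8.84 at 6 h (log2 change -3.1, SE 0.34, adjusted p = 0.000111). Csrp3, the muscle LIM protein, had 1080, 1169 and 1027 at 3 h and 133, 246 and 73.5 at 6 h (log2 change -2.86, SE 0.35, adjusted p = 0.000213), and Perm1, a regulator of muscle mitochondria, 239.9, 315 and 275 at 3 h and 12.9, 72.8 and 3.42 at 6 h (log2 change -3.0, SE 0.46, adjusted p = 0.000748). Each 6 h array of the 3 genes was below each 3 h array, as the rule for the leading falls required. Of the 15 largest falls, Xirp1, Perm1 and Cth had 2 and Reg3a and Tmem158 had 1 of the 3 arrays at 6 h under the filter's intensity of about 28, so the size of these changes and their place in the order rest on values near background. Pycard, the inflammasome adaptor ASC, had 463, 424 and 387 at 3 h and 39.3, 47.7 and 47.1 at 6 h, the fall with the smallest spread among them (log2 change -2.84, SE 0.15, adjusted p = 2.39e-07). Lgals9, a lectin, had 1323, 1288 and 748 at 3 h and 135, 257 and 129 at 6 h (log2 change -2.61, SE 0.31, adjusted p = 0.0002). Mlf1 fell 7.26-fold, Shc4, a neuronal Shc adaptor, 5.4-fold and the uncharacterised LOC102554253 5.79-fold. Tmem158 fell 6.2-fold (log2 change -2.63, SE 0.71, adjusted p = 0.0163). Tmem158 lost its call without 3 h A, 3 h B, 6 h A or 6 h C (adjusted p 0.0541 to 0.0771).

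FOXO target genes rose in larger number than they fell, 11 against 3 of 22, with a median of 0.50. Of all genes 13.4% rose. The share of FOXO targets that fell was 13.6%, near the 14.1% of all genes. The share that passed was 63.6%, against 27.5% of all genes. FOXO factors act when insulin and AKT signalling is low. Foxo3 itself had 1066, 929 and 938 at 3 h and 2442, 1787 and 2348 at 6 h (log2 change 1.23, SE 0.13, adjusted p = 8.97e-05). Cited2, a transcription coregulator, had 769, 754 and 843 at 3 h and 2452, 1908 and 2708 at 6 h (log2 change 1.63, SE 0.14, adjusted p = 3.97e-05), on both probe sets. Pik3ip1, an inhibitor of PI3 kinase, had 113, 98.9 and 105 at 3 h and 354, 236 and 368 at 6 h (log2 change 1.38, SE 0.19, adjusted p = 0.000341), and Ccng2, an atypical cyclin, 281, 373 and 430.4 at 3 h and 1639, 842 and 1908 at 6 h (log2 change 1.95, SE 0.29, adjusted p = 0.000678). Angptl4 (1.94), Sesn1 (1.29), Cat (0.88), Rictor (0.86) and Insr (0.60) rose. Trim63 (-0.95), Bcl6 (-0.73) and Sod2 (-0.56) fell, and the cell-death genes Bcl2l11 (-0.30, adjusted p = 0.326) and Txnip (-0.25) did not pass. FOXO target genes gave 7 rises without 6 h A or 6 h C and 1 fall without 3 h B, 3 h C, 6 h A or 6 h C.

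In the AKT and IGF pathway list 4 of 16 rose and 2 fell, so that 37.5% passed, against 27.5% of all genes. Pik3r1, the regulatory subunit of PI3 kinase, had 294, 262 and 214 at 3 h and 63.2, 124 and 45 at 6 h (log2 change -1.64, SE 0.29, adjusted p = 0.00164), and Akt1 fell by 0.46 with an adjusted p just under the threshold (0.049999). Pik3ca, the catalytic subunit, rose (0.82, adjusted p = 0.00639, with 4 of 6 probe sets passing and 1 of the opposite sign), as did Rptor (0.40), Pik3r3 (0.50) and the dim Pik3cd (1.26). Among 22 growth factors and receptors 1 rose and 7 fell (31.8%, against 14.1% of all genes). The receptor Igf1r was the gene that rose, with 188, 179.7 and 365 at 3 h and 850.2, 584 and 798 at 6 h (log2 change 1.57, SE 0.22, adjusted p = 0.000479), and the binding protein Igfbp3 fell, with 309.9, 305 and 226 at 3 h and 63.5, 113 and 74.8 at 6 h (log2 change -1.61, SE 0.20, adjusted p = 0.000216). Bmp2 (-0.93), Bmp4 (-0.76), Hbegf (-0.70) and Vegfa (-0.69) fell. AKT and IGF pathway genes gave 1 rise without 3 h A or 6 h A, 2 rises without 3 h B, 3 h C or 6 h C and 1 fall without 3 h A, 3 h B, 3 h C, 6 h A or 6 h C. Growth factor genes gave 2 rises without 6 h B and 3 falls without 6 h A or 6 h C. Pik3r3 lost its call without 3 h A, 3 h C, 6 h A or 6 h C (adjusted p 0.0875 to 0.125), and Pik3cd lost its call without 3 h A, 3 h B, 6 h A or 6 h C or under the deposited scaling (adjusted p 0.0584 to 0.178).

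Of 15 pro-apoptotic genes 2 rose and 2 fell, close to the 27.5% of all genes. Casp2 (0.80, adjusted p = 0.0184) and Apaf1 (0.70, adjusted p = 0.0233) rose and Casp9 (-0.53, adjusted p = 0.048) and Diablo (-0.39, adjusted p = 0.0371) fell. Hrk, a death-promoting BH3 protein induced in dying neurons, had 21.1, 47.5 and 53.6 at 3 h and 73.5, 45.6 and 48.8 at 6 h and did not pass (0.40, adjusted p = 0.308). In low potassium its change was 1.43, but the difference of -1.03 did not pass (paired adjusted p = 0.12). Of 11 anti-apoptotic genes 2 fell: Bag1 had 654, 718 and 677 at 3 h and 373, 452 and 427 at 6 h (log2 change -0.73, SE 0.12, adjusted p = 0.000937) and Mcl1 -0.45 (adjusted p = 0.0129). Bcl2a1 (-1.03, adjusted p = 0.0518) and Xiap (0.32, adjusted p = 0.196) did not pass. Pro-apoptotic genes gave 0 rises without 3 h A, 3 h B, 6 h A or 6 h C and 0 falls without 3 h A, 3 h B, 6 h A or 6 h C, under the deposited scaling or under median scaling. Anti-apoptotic genes gave 1 fall without 3 h B. Casp2 and Apaf1 lost their calls without 3 h A, 3 h B, 6 h A or 6 h C (adjusted p 0.0513 to 0.108), and Diablo and Casp9 lost their calls without 3 h A, 3 h B, 6 h A or 6 h C, under the deposited scaling or under median scaling (adjusted p 0.0513 to 0.172). Mcl1 lost its call without 3 h B or 6 h A (adjusted p 0.065 to 0.0676). Bcl2a1 passed without 3 h C or 6 h A, under the deposited scaling or under median scaling (adjusted p 0.0323 to 0.0454).

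Of 16 p53 targets 5 fell (31.2%, against 14.1% of all genes) and 1 rose. Cdkn1a, the cell cycle inhibitor p21, had 809, 1047 and 1066 at 3 h and 290.1, 705 and 182 at 6 h (log2 change -1.5, SE 0.37, adjusted p = 0.0113). Ccng1 had 2931, 2845 and 2847 at 3 h and 1198, 1635 and 1108 at 6 h (log2 change -1.05, SE 0.16, adjusted p = 0.000652), Perp fell (-1.28, adjusted p = 0.00304), and Sesn1 rose. Cell cycle genes gave 3 rises and 2 falls of 25 (median 0.015): Cdk4 (-0.76, adjusted p = 0.00403) and Ccnd2 (-0.70) fell, and Ccne1 (0.66), E2f1 (0.69) and Ccne2 (0.40, with 1 of 2 probe sets of this sign) rose. The proliferation marker Mki67 did not pass (-0.59, adjusted p = 0.0574). The p53 target genes gave 2 rises under the deposited scaling or under median scaling and 3 falls without 3 h A, 3 h B, 6 h A or 6 h C. Cell cycle genes gave 0 rises without 3 h B or 6 h A, 1 fall without 3 h A, 3 h B, 3 h C, 6 h A or 6 h C or under median scaling and 4 falls without 6 h B. Cdkn1a lost its call without 6 h A or 6 h C (adjusted p 0.0506 to 0.053), and Ccne1 lost its call without 3 h B or 6 h A (adjusted p 0.0535 to 0.0845). E2f1 lost its call without 3 h B, 6 h A or 6 h C (adjusted p 0.056 to 0.0681), and Ccne2 lost its call without 3 h A, 3 h B, 3 h C, 6 h A or 6 h B (adjusted p 0.0584 to 0.105).

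Among 13 NRF2 targets 3 fell (23.1%, against 14.1% of all genes) and none rose (median -0.46). The share that passed was the same 23.1%, below the 27.5% of all genes. Hmox1, the heme-degrading enzyme, had 580.3, 584 and 473 at 3 h and 153, 178 and 98.7 at 6 h (log2 change -1.88, SE 0.21, adjusted p = 0.000119), beside Slc7a11 and Srxn1 (-1.12, adjusted p = 0.0355). Nqo1 did not pass (-0.014, adjusted p = 0.968), nor did the AhR target Cyp1b1 (-0.15, adjusted p = 0.639), while Tiparp, another AhR target, fell (log2 change -0.88, SE 0.18, adjusted p = 0.0035), 1 of the 3 tested. Glycolysis and hypoxia genes gave 6 rises and 9 falls of 28, so that 53.6% passed, against 27.5% of all genes. Ndrg1 (log2 change -1.41, SE 0.17, adjusted p = 0.000185), the peptide hormone Adm (-1.36, adjusted p = 0.00309), Hk2 (-1.33), the oxygen sensor Egln3 (-1.17, adjusted p = 0.0211) and the glucose transporter Slc2a1 (-0.64, adjusted p = 0.00445) fell, while Hk1 (0.48, adjusted p = 0.00435), Pfkm (0.52) and the astrocyte enzyme Aldoc rose. NRF2 genes gave 6 falls without 6 h B. Glycolysis and hypoxia genes gave 1 rise without 3 h A, 3 h B or 6 h A, 3 rises without 6 h C, 5 falls without 6 h A or 6 h C and 14 falls under the deposited scaling. Srxn1 lost its call without 3 h A, 3 h B, 3 h C, 6 h A or 6 h C (adjusted p 0.0629 to 0.157), and Aldoc and Egln3 lost their calls without 3 h A, 3 h B, 6 h A or 6 h C (adjusted p 0.0565 to 0.098).

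Cholesterol genes gave 2 rises and 3 falls of 18, so that 27.8% passed, about the 27.5% of all genes. Dhcr7 (1.0, adjusted p = 0.00494) and Fdft1 (1.09, adjusted p = 0.0135) rose, and Mvd (-0.77), Cyp51 (-0.49) and Sc5d (-0.51) fell. Of 22 genes of autophagy and the lysosome 8 fell (36.4%, against 14.1% of all genes) and 1 rose. Wipi1, an autophagy protein, had 620.1, 604 and 572 at 3 h and 221, 319 and 239.5 at 6 h (log2 change -1.22, SE 0.15, adjusted p = 0.000235), Tfeb, the regulator of lysosomal genes, 195, 159 and 171 at 3 h and 71.1, 74.9 and 70.0 at 6 h (log2 change -1.13, SE 0.17, adjusted p = 0.000666), and Atg3 (-0.78, adjusted p = 0.000667) and Hexa (-0.73, adjusted p = 0.00155) fell. The kinase Ulk1 rose (0.90). Cholesterol genes gave 1 rise without 6 h A or 6 h C, 0 falls without 3 h B, 3 h C, 6 h A or 6 h C and 1 fall under median scaling. Autophagy and lysosome genes gave 0 rises without 3 h A, 3 h B, 6 h A or 6 h C and 2 rises without 6 h B. Fdft1 lost its call without 6 h A or 6 h C (adjusted p 0.058 to 0.075), and Cyp51 lost its call without 3 h B, 3 h C, 6 h A or 6 h C (adjusted p 0.0516 to 0.08). Sc5d lost its call without 3 h B, 3 h C, 6 h A or 6 h C or under median scaling (adjusted p 0.0693 to 0.161).

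Of 25 proteasome genes 6 fell (24.0%, against 14.1% of all genes), between -0.28 (Psma7) and -0.57 (Psmc4, 1276, 1224 and 1025 at 3 h and 707, 783 and 801 at 6 h), together with Psmb1, Psmb4, Psmb2 and Psmc5. None rose, so the share that passed was the same 24.0%, below the 27.5% of all genes. Of 17 ribosomal protein genes 3 fell, Rpl18 (-0.45, adjusted p = 0.00356), Rps3 (-0.29, adjusted p = 0.0158) and Rpl14 (-0.30, adjusted p = 0.0349), and Rpl11 did not pass (-0.14, adjusted p = 0.0863). Oxidative phosphorylation gave 1 rise, Ndufs1 (0.33, adjusted p = 0.0248), and 3 falls of 27, Ndufa5 (-0.84, adjusted p = 0.00574), Cyc1 (-0.32, adjusted p = 0.0109) and Ndufb5 (-0.28, adjusted p = 0.0401). Proteasome genes gave 3 falls without 3 h A, 3 h B or 6 h A. Ribosomal protein genes gave 1 fall without 3 h A, 3 h B or 6 h C, 10 falls under median scaling and 12 falls under the deposited scaling. Oxidative phosphorylation genes gave 0 rises without 3 h B, 6 h A or 6 h C, under the deposited scaling or under median scaling, 2 rises without 6 h B, 6 falls without 6 h B or under median scaling and 8 falls under the deposited scaling. Psmc5 lost its call without 3 h A, 3 h B, 6 h A or 6 h C or under median scaling (adjusted p 0.0564 to 0.0807), and Rps3 lost its call without 3 h A, 3 h B or 6 h C (adjusted p 0.0542 to 0.0748). Rpl14 lost its call without 3 h A, 3 h B, 6 h A or 6 h C (adjusted p 0.0616 to 0.145), and Cyc1 lost its call without 6 h C (adjusted p = 0.0518). Ndufs1 lost its call without 3 h B, 3 h C, 6 h A or 6 h C, under the deposited scaling or under median scaling (adjusted p 0.0548 to 0.134), and Ndufb5 lost its call without 3 h A, 3 h B, 3 h C, 6 h A or 6 h C (adjusted p 0.0608 to 0.143). Rpl11 passed under the deposited scaling or under median scaling (adjusted p 0.005 to 0.0108).

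Among 24 splicing factor genes 8 fell (33.3%, against 14.1% of all genes) and 2 rose. Srsf6 had 624, 596 and 524 at 3 h and 288, 266 and 354 at 6 h (log2 change -0.96, SE 0.15, adjusted p = 0.000801; 2 of 3 probe sets of this sign), Hnrnpf 973, 905 and 737 at 3 h and 524, 575 and 439 at 6 h (log2 change -0.75, SE 0.14, adjusted p = 0.00216), and Hnrnpa3 (-0.68, 4 of 5 probe sets of this sign) and Hnrnpu (-0.62, 1 of 3) fell, and Tra2b (0.35) and Hnrnph1 (0.32) rose. Chromatin and CREB or MEF2 genes gave 5 rises and 5 falls of 18, so that 55.6% passed, against 27.5% of all genes. The histone acetyltransferases Ep300 (137, 145 and 206 at 3 h and 459, 391 and 376 at 6 h; log2 change 1.2, SE 0.20, adjusted p = 0.00111) and Crebbp (1.01, adjusted p = 0.000811, 2 of 3 probe sets of this sign) rose with Creb1 (1.02), and the deacetylases Hdac3 (-0.80, adjusted p = 0.00309), Hdac5 (-0.91) and Sirt2 (-0.62, adjusted p = 0.00396) and the survival factor Mef2c (-1.29) fell. Of 13 circadian genes 3 rose, Nr1d2 (log2 change 1.07, SE 0.14, adjusted p = 0.000281), Cry2 (1.14, adjusted p = 0.0119) and Tef (0.64), and 3 fell, Bhlhe40 (367, 366 and 319 at 3 h and 79.6, 108 and 76.5 at 6 h; log2 change -1.84, SE 0.25, adjusted p = 0.000337), Per2 (log2 change -0.90, SE 0.16, adjusted p = 0.00144) and Cry1 (-0.68). Splicing factor genes gave 0 rises without 3 h B or 6 h B, 1 rise without 3 h A, 3 h C or 6 h C, under the deposited scaling or under median scaling, 4 falls without 6 h A and 5 falls without 3 h B. Chromatin and CREB genes gave 2 rises without 3 h B or 6 h A and 3 rises without 3 h A, 3 h C or 6 h C. With all arrays 46.2% of the circadian genes passed, against 27.5% of all genes. Circadian genes gave 1 rise without 3 h A, 6 h A or 6 h C and 5 rises under median scaling. Hnrnpu and Hnrnpa3 lost their calls without 6 h A (adjusted p 0.0521 to 0.0551), and Cry2 lost its call without 3 h A, 6 h A or 6 h C (adjusted p 0.05 to 0.057).

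Whether this change over time differed from that in low potassium was tested as a difference of differences. Within a time, arrays with the same letter deviated together across the treatments (correlations of their deviations of 0.425, 0.21 and 0.542 at 3 h and 0.293, 0.65 and 0.572 at 6 h), so the fit with pairs is given beside the one without. Without pairs 0 of 18625 probe sets passed (0%; 644 at an unadjusted p under 0.05, lowest adjusted p 0.9998). With pairs 33 passed (0.177%; 2506 at an unadjusted p under 0.05), 16 with a higher and 17 with a lower change with GW5074. Of the 2823 genes called with GW5074, 2786 had the same sign in low potassium and 37 the opposite. Their median rise was 0.74 with GW5074 and 0.59 in low potassium, and their median fall -0.72 and -0.66. These genes were chosen by their call with GW5074, which favours larger changes there. The medians therefore do not compare the treatments. The standard error of the difference had a median of 0.26 without pairs and 0.18 with pairs. None of the 30 leading rises and falls passed the paired test of the difference, with 0.0572 the lowest adjusted p. The granule neuron list had a median of 0.80 with GW5074 and 0.58 in low potassium, the ATF4 list -0.76 and -0.86, the synthetases -0.72 and -0.67 and the immediate early genes -0.66 and -0.64, and 1 member of these 4 lists passed the paired test. It was Reln, a secreted glycoprotein of granule neurons (difference 0.55, paired adjusted p = 0.0468), named after its value was seen.

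Atp1b2, a beta subunit of the sodium pump that restores the potassium gradient, had 469.7, 415 and 526 at 3 h and 1490, 1018 and 1781 at 6 h with GW5074 and 576, 495 and 678 at 3 h and 1062, 845 and 1211 at 6 h in low potassium. It rose under both, and by more with GW5074 (difference 0.77, SE 0.12, paired adjusted p = 0.0319). Another beta subunit, Atp1b1, had 7815, 7041 and 8347 at 3 h and 6273, 7603 and 5965 at 6 h with GW5074 and 7324, 7018 and 8174 at 3 h and 5279, 6480 and 4418 at 6 h in low potassium (difference 0.39, SE 0.07, paired adjusted p = 0.0372). Its log2 changes were -0.0038 and -0.39, the first of which did not pass. Stmn4, a microtubule-destabilising neuronal stathmin, had 409.6, 411 and 477 at 3 h and 830.4, 519 and 795 at 6 h with GW5074 and 542, 614 and 796 at 3 h and 2631, 1504 and 1735 at 6 h in low potassium, a smaller rise with GW5074 (difference -0.94, SE 0.13, paired adjusted p = 0.0248). Its own rise with GW5074 passed (0.65, adjusted p = 0.0424). Stmn4 lost its call without 3 h A, 3 h B, 3 h C, 6 h A or 6 h C (adjusted p 0.0511 to 0.166).

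Pik3r1 and Gadd45g fell by more with GW5074. Pik3r1 had 264, 198 and 247 at 3 h and 176, 232 and 96 at 6 h in low potassium (difference -1.07, SE 0.19, paired adjusted p = 0.042), and Gadd45g 1202, 1535 and 1174 at 3 h and 846, 783 and 403 at 6 h (difference -0.83, SE 0.13, paired adjusted p = 0.0319). Cdr2, a target of cerebellar autoantibodies, had 387, 273 and 256 at 3 h and 119.6, 255 and 38 at 6 h with GW5074 and 267, 316 and 218 at 3 h and 606, 398 and 176 at 6 h in low potassium (difference -1.72, SE 0.29, paired adjusted p = 0.0372), with 6 h C the lowest under both treatments. Dtna, a dystrophin-associated protein, had 391, 338 and 487 at 3 h and 553, 178 and 675 at 6 h and 303, 391 and 339.5 at 3 h and 941, 295 and 1152 at 6 h (difference -0.98, SE 0.16, paired adjusted p = 0.0356); its B arrays at 6 h were the lowest under both, and 1 of its 3 probe sets had the opposite sign with GW5074. L1cam rose with GW5074 and had 365, 378 and 562 at 3 h and 411, 479 and 597 at 6 h in low potassium (difference 0.77, SE 0.15, paired adjusted p = 0.0468). The fall of Cdr2 with GW5074, apart from the difference, passed (-1.37, adjusted p = 0.0462). Cdr2 lost this call without 3 h A, 3 h B, 3 h C, 6 h A or 6 h C or under the deposited scaling (adjusted p 0.0519 to 0.203).

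Tspan5 (0.66, SE 0.11, paired adjusted p = 0.0373), Sipa1l2 (0.72, SE 0.13, paired adjusted p = 0.0459) and Tmem163 (0.78, SE 0.15, paired adjusted p = 0.0459) had higher changes with GW5074. Their log2 changes were 0.43, -0.13 and -0.02 with GW5074 and -0.23, -0.86 and -0.80 in low potassium. The 5 genes with the smallest p without pairs were Rassf8 (difference 0.74), Ptprf (0.73), Anp32a (-1.25), Dglucy (1.08) and Sdcbp (-0.64), all at an adjusted p of 0.9998. With pairs Ptprf, a receptor phosphatase, and Anp32a passed (adjusted p = 0.0468 and 0.0459), and Rassf8, Dglucy and Sdcbp did not (0.0555, 0.111 and 0.0614). Ptprf had 212, 238 and 280 at 3 h and 389, 346 and 406 at 6 h with GW5074 and 276, 288 and 315 at 3 h and 274, 249.6 and 285 at 6 h in low potassium, so it rose with GW5074 (log2 change 0.55, SE 0.13, adjusted p = 0.00936) and lay within its 3 h range or below in low potassium. In the test of 6 h against 3 h with GW5074, apart from the difference, Rassf8 (0.47, adjusted p = 0.0164) and Anp32a (-0.75, adjusted p = 0.0289) passed. Rassf8 lost this call without 3 h A, 3 h B, 6 h A or 6 h C (adjusted p 0.0571 to 0.066). Anp32a lost it without 3 h B, 3 h C, 6 h A or 6 h C (adjusted p 0.0823 to 0.114). Dglucy (0.68, adjusted p = 0.0239) and Sdcbp (-0.49, adjusted p = 0.00937) also passed this test with GW5074. Dglucy lost that call without 3 h A, 6 h A or 6 h C (adjusted p 0.0553 to 0.0946), and Sdcbp without 6 h A (adjusted p = 0.0503). Tspan5 did not pass the test with GW5074 on all arrays (adjusted p = 0.0628) and passed it without 3 h C (adjusted p = 0.04).

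**Figure D5:**
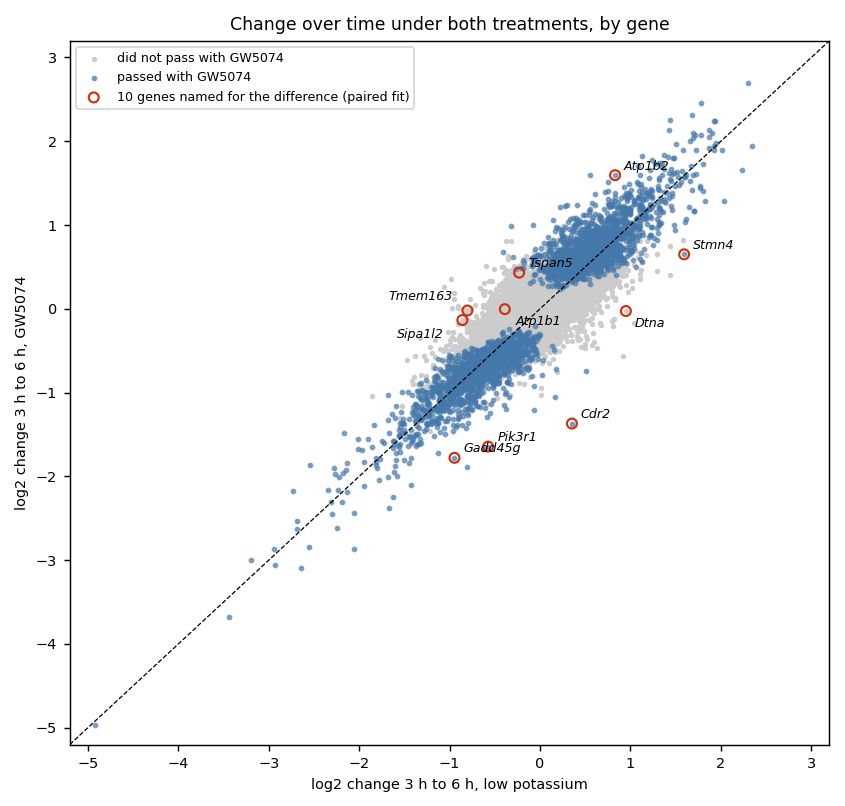
Log2 change from 3 h to 6 h in low potassium (x axis) and with GW5074 (y axis), 1 point per gene (10261); blue genes passed with GW5074, the dashed line marks equal change, and red circles mark the 10 genes named for the difference. Of the 2823 blue genes 2786 have the same sign on both axes, and the circled genes lie off the line, as Cdr2, Stmn4 and Atp1b2 do.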

How the data were processed

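Total RNA of 12 culture samples was measured on Affymetrix rat arrays with 31099 probe sets, 57 of them controls. The authors deposited linear intensity values, scaled on each array, from the values, to a mean of 150 after trimming the lowest and highest 2%; the software was not named in the sources used here. The values were quantile-normalised, 16 was added, log2 was taken, and probe sets at or above the 40th percentile of the mean (intensity about 28) were kept, 18625 for 10261 genes. Symbols came from the platform table, updated by Entrez identifier (20758 matched; RefSeq, GRCr8, names only): 20826 probe sets had 1 symbol, 436 several and 9780 none. The fit was limma 3.58.1 in R 4.3.3 (lmFit, eBayes with trend, two-sided, 4 group means, 8 residual degrees of freedom); the difference from low potassium was also fitted with letter within time as a block (4 degrees). The letters come from the titles; across the times they did not pair the GW5074 arrays (correlations -0.0012, 0.011 and 6.42e-05). A simulation with 200 changed genes tested the code. Named were the 15 largest rises and 15 largest falls with arrays not overlapping, up to 4 members of each of 35 pathway and 7 marker lists by p, preset genes, and for the difference 5 genes in each direction (paired), or the 5 with the smallest p where none passed. Members and lists were chosen with earlier results of these data known, and list members named beyond 4 with their values seen. Alternatives changed the scaling, pseudocount, filter, trend, weights, block and arrays. matplotlib 3.10.9 and Python 3.11.15 made the figures.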

Additional observations from a re-analysis of the deposited data

Results flagged for a closer look

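The change from 3 h to 6 h differed between GW5074 and low potassium for 14 of the genes named, by the paired limma test of the difference itself. Of these, 10 were named because they passed this test with the smallest p, so the count follows in part from the naming rule. Another, Reln (0.552), was named after its value was seen. Over all 18625 probe sets 33 passed (0.177%). The change was higher with GW5074, as a difference in log2, for Tmem163 (0.783), L1cam (0.77), Atp1b2 (0.766), Ptprf (0.728), Sipa1l2 (0.725), Tspan5 (0.663), Atp1b1 (0.385). It was lower for Cdr2 (-1.72), Anp32a (-1.25), Pik3r1 (-1.07), Dtna (-0.976), Stmn4 (-0.943), Gadd45g (-0.832). None of these passed in the fit without pairs (adjusted p = 0.9998), in which 0 probe sets passed and 644 were at an unadjusted p under 0.05.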

How the results depend on the processing

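The count of 4664 probe sets kept within 1.5 times (3827 to 5831) under the other scalings, pseudocounts, filters, no trend, the GW5074 arrays alone, letter B left out and both blocks, and at most 1 shared call turned sign in any of them. With array quality weights it was 9029 (4513 rises and 4516 falls). Leaving out 1 array gave 2463 to 5362 calls, 1317 to 2698 rises and 1146 to 2664 falls, with none of the shared calls turning sign. Letter over both times as a replicate block, which the arrays' deviations gave no ground for, called 5831, and letter as a random replicate block 4750. The paired fit (replicate block within time) called 33 probe sets for the difference from low potassium in place of 0; it applies to that difference alone. Median scaling moved the share of rises from 52.3% to 60.3%.

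Of the genes named, 23 changes lost the call with letter B left out, 19 without the trend, 17 with no filter, 10 under median scaling, 9 under the deposited scaling, 9 with the GW5074 arrays alone and at most 2 in the other fits on all arrays. No gene past the threshold reversed. Among those that had not passed, deposited scaling and median scaling turned Nqo1 (0.052 and 0.098), Tmem163 (0.025 and 0.071) and Dtna (0.025 and 0.071), array weights Nqo1 (0.042), Atp1b1 (0.037) and Dtna (0.40), and omission of letter B C1qa (0.075), Col1a2 (-0.13) and Dtna (0.42). Over the fits without 1 array the sign turned for Nqo1 (-0.16 to 0.19), Pdgfra (-0.28 to 0.043), C1qa (-0.59 to 0.045), Tmem163 (-0.12 to 0.056), Atp1b1 (-0.105 to 0.069), Dtna (-0.38 to 0.54) and Gad1 (-0.0068 to 0.215). The cause was not tested. With 3 arrays per group and fewer when 1 is left out, small changes and genes near background cannot be settled.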
